A study of Mus musculus with 12 samples.

Results

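The change from lactation to involution day 3 in JNK-deficient (JNK KO) mouse mammary glands was examined in 6 RNA-seq libraries of the 12 in the study, 3 made on involution day 3 and 3 made on involution day 0. They were chosen by their labelled genotype and day alone, and every gene with a value was considered. The JNK KO mice carried Wap-Cre-/+ with Mapk8 LoxP/LoxP and Mapk9 LoxP/LoxP alleles on a C57BL/6 strain background, so that both JNK1 and JNK2 are deleted where Cre is expressed. The 6 JNK WT libraries (3 on day 3 and 3 on day 0), used where the genotypes are compared, came from Wap-Cre-/+ mice without the floxed alleles. Females bred at 10 to 12 weeks of age nursed 6 to 8 pups for 9 days. Removal of the litter marked day 0, the lactating gland, and the other glands were taken 3 days later. Wap-Cre is driven by a milk protein gene promoter and acts in luminal epithelial cells, so adipocytes, fibroblasts, vessels and leukocytes of a JNK KO gland keep both kinases.

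When suckling stops, milk accumulates in the alveoli and the gland dismantles the tissue that made it. This stasis ends prolactin and STAT5 signaling, LIF activates STAT3, alveolar cells are shed and taken up by phagocytic neighbors, and fat cells refill with lipid. JNK is a stress-activated MAP kinase that phosphorylates cJUN and other AP1 proteins and can promote death through BH3-only proteins of the BCL2 family.

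Values are FPKM, the number of sequenced fragments scaled to gene length and library size, given for libraries 3, 4 and 6 on day 3 and libraries 1, 2 and 3 on day 0, always in that order. These numbers are those of the deposited columns. Of 14512 genes tested, 9525 (65.6%) were called higher on day 3 and 116 (0.799%) lower in the values as deposited, at an adjusted p below 0.01 and an absolute log2 change above 1 (limma). This whole-table shift had a median log2 change of 1.68. Milk genes held 39.5, 14.2 and 9.01% of summed FPKM on day 3 against 57.4, 62.7 and 67% on day 0. After each library was divided by its median ratio to the 12-library geometric mean, 1399 genes were called: 714 (4.92%) higher and 685 (4.72%) lower, with a median log2 change of 0.04. With a common total of the genes other than milk proteins and antigen receptor segments, the split was 711 higher and 202 lower and the median stood at 0.37. Unless stated otherwise, changes below are log2 differences of scaled FPKM plus 0.1, day 3 minus day 0, with standard error, and a single gene rose or fell where its adjusted p was below 0.05. By that rule 1633 genes (11.3%) rose and 1432 (9.87%) fell, against 11606 (80.0%) and 199 (1.37%) in values as deposited. The counts of every gene list below stand against these shares of all genes tested.

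Some libraries stood apart. Day 0 library 1 had the highest acute phase levels of its group, with 809 FPKM of Saa1 against 19.7 and 14.6 FPKM in the other 2 libraries. Day 3 library 3 had the largest milk share and the smallest scale factor of its group (1.40, against 1.93 and 2.07 in libraries 4 and 6), and the day 0 factors were 0.541, 0.489 and 0.519. Skeletal muscle markers summed to 16.5, 20.7 and 211 FPKM on day 3 and 45.7, 432 and 1390.3 FPKM on day 0, the widest ratio of highest to lowest library of all marker lists, on either day. Antigen receptor segments, which are very short gene models, took 28.4, 54.4 and 72.7% of summed FPKM on day 3 and 27.3, 21.3 and 21.4% on day 0. The whole gland was sampled, so fewer cells of a type and less RNA per cell cannot be told apart in any result. The tissue label was checked by Csn2 and Krt18, detected in all 6 libraries, and by 19 luminal epithelial markers. Each marker passed the FPKM minimum, which asks for 0.5 FPKM in 3 or more libraries of either genotype. Passing does not place a marker above 0.5 FPKM in all 6 JNK KO libraries, and Cldn4 was below it in day 0 libraries 2 and 3. Neither the genotype nor the day is checked by these genes.

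The targeted transcripts were measurable in JNK KO glands at both times. Mapk8, encoding JNK1, had 1.25, 3.57 and 2.79 FPKM on day 3 against 0.986, 0.965 and 2.78 FPKM on day 0, and its change did not pass after scaling (log2 change -0.98 ± 0.38, adjusted p = 0.092) or as deposited (0.7). Day 0 library 3 lay near the day 3 libraries, and the 2 groups overlapped. Mapk9, encoding JNK2, had 5.26, 10.5 and 10.03 FPKM on day 3 against 4.86, 4.33 and 8.78 FPKM on day 0. It fell relative to the typical gene (log2 change -1.24 ± 0.34, adjusted p = 0.026) but not in values as deposited, where its change was 0.52 (adjusted p = 0.33). Without day 3 library 3, 4 or 6, or day 0 library 3, the scaled fall of Mapk9 no longer passed, with changes of -1.09, -1.35, -1.27 and -0.94. FPKM of a whole gene and of a whole gland do not measure the floxed exon in luminal cells, so these levels do not check the deletion.

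Most milk protein genes fell. Of 13 milk protein genes tested, 9 fell and 1 rose, with a median change of -2.98, while as deposited 1 rose and 6 fell. Csn1s1, an alpha casein, had 37449, 14421 and 12871 FPKM on day 3 against 133750.0, 143050.0 and 150060.0 FPKM on day 0 and fell (log2 change -4.68 ± 0.88, adjusted p = 0.0038). Its levels on day 3 were all below those on day 0, and library 3 kept the most. Csn1s2a (-4.4), Csn1s2b (-3.78) and Glycam1, a mucin-like whey component (-4.0), fell likewise. The beta casein gene Csn2 had 135880.0, 71258 and 73288 FPKM on day 3 against 205480.0, 203110.0 and 205830.0 FPKM on day 0; its fall of -2.98 had an adjusted p of 0.048 and missed the threshold in 9 of the 12 fits that left out a single library, among them those without day 3 library 4 or 6 or any day 0 library (adjusted p = 0.0945 to 0.158). Csn1s2a missed it without day 3 library 6 (adjusted p = 0.0503). Wap, whey acidic protein, had 142630.0, 90769 and 81492 FPKM on day 3 against 87221, 115630.0 and 64246 FPKM on day 0, and the groups overlapped, with a change of 0.23 as deposited and -1.55 ± 0.95 after scaling (adjusted p = 0.28). Lactoferrin (Ltf), an iron-binding defense protein, was the member that rose: it had 9896, 5969.8 and 8066 FPKM on day 3 against 541, 134 and 147 FPKM on day 0 (log2 change 3.36 ± 0.69, adjusted p = 0.0061). As a share of summed FPKM, the milk list averaged 20.9 ± 16.3% on day 3 against 62.4 ± 4.83% on day 0 (SD, n = 3 each), with no overlap. Its exact two-sided permutation p was 0.1, the smallest that 3 against 3 libraries allow. Without antigen receptor segments the shares were 55.1, 31.1 and 33.1% on day 3 against 78.9, 79.8 and 85.2% on day 0. Between 6 and 9 members fell when single JNK KO libraries were left out.

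**Figure D1:**
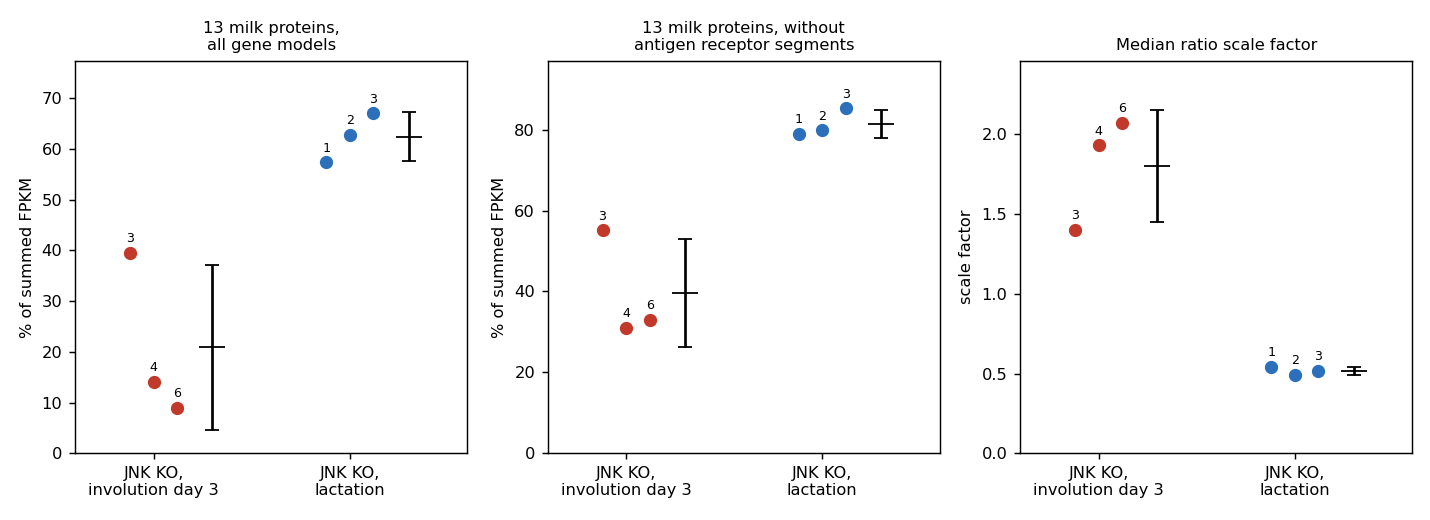
Share of summed FPKM held by the 13 milk protein genes tested (left, all gene models; middle, without antigen receptor segments) and the median ratio scale factor (right) of each JNK KO library, numbered as in the deposited columns; lines give the mean and SD of 3 libraries. Day 3 shares sit at 9.01 to 39.5% (left), all below the 57.4 to 67% of day 0.

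Casein promoters are shown because STAT5, the factor downstream of prolactin, binds elements of the form TTCNNNGAA, and casein genes were among those that fell. The 250 bases before each start in the RefSeq set (GRCm38.p6) were searched for these letters, which read the same on both strands. A match stood in 3 of the 10 milk protein genes that had a promoter in the set (Csn1s1, Csn2 and Glycam1) and in 8.13% of all 27025 genes with one. It also stood in 4 of the 15 interferon-stimulated genes with a promoter in the set, a list in which 17 of 19 genes rose. The milk list was made of known milk protein genes, so its share may follow from their choice and says nothing about these libraries. Binding of STAT5 was not tested. Each run below holds 90 bases, 5′ to 3′ toward the gene, with the match in capitals.
Csn1s1, chr5:87666067-87666156, plus strand: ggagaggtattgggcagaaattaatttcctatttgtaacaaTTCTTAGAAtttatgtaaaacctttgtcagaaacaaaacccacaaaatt
Csn2, chr5:87699470-87699559, minus strand: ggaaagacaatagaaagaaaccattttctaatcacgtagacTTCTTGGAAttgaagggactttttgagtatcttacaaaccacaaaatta

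Fat and lactose genes also fell. Of 15 milk fat globule and lactose genes, 11 fell and none rose (5 to 11 fell with single JNK KO libraries left out; median -1.43), while as deposited 2 rose and 3 fell. Fabp3, a fatty acid binding protein, showed the largest fall of any named gene with a measurable level at both times, with 18.4, 4.06 and 6.53 FPKM on day 3 against 285, 399 and 383 FPKM on day 0 (log2 change -7.22 ± 0.83, adjusted p = 0.00021). Every day 3 library was far below every day 0 library. Cidea, a lipid droplet protein, had 179, 121 and 124 FPKM on day 3 against 672, 619 and 505 FPKM on day 0 (log2 change -3.88 ± 0.35, adjusted p = 5.1e-05). Rab18 (change -2.66) and B4galt1, the galactosyltransferase of lactose synthase (change -2.49), also fell. Mfge8, the bridging protein of milk fat globules and dying cells, did not pass, with 4661, 1675 and 2897 FPKM on day 3 against 841, 959 and 663 FPKM on day 0 and a change of 0.02 (adjusted p = 0.98). The 24 genes of fatty acid and triglyceride synthesis gave 18 that fell and none that rose (median -2.38; 15 to 18 with libraries left out), while as deposited 2 rose and 7 fell. Fads2, a fatty acid desaturase, had 14.2, 18 and 18.6 FPKM on day 3 against 102, 116 and 98.7 FPKM on day 0 (log2 change -4.42 ± 0.37, adjusted p = 4.1e-05). Fasn, the fatty acid synthase, had 119, 65.9 and 103 FPKM on day 3 against 522, 611 and 439 FPKM on day 0 (log2 change -4.26 ± 0.81, adjusted p = 0.0042). Olah, the thioesterase that ends medium-chain synthesis, changed by -3.97, and Lpin1, a phosphatidate phosphatase, by -3.87. Among 21 cholesterol genes, 14 fell and none rose (median -1.63), while as deposited 8 rose and 2 fell. Leaving out single libraries gave 6 to 15, the lowest without day 3 library 4. Insig1, a sterol-sensing regulator, changed by -4.16, Hsd17b7 by -3.47 and Sqle, the squalene epoxidase, by -2.61.

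Of 11 genes of mineral transport into milk, 5 fell and none rose, while as deposited 7 rose and 3 fell. The calcium pump gene Atp2b2 had 1.69, 0.588 and 0.983 FPKM on day 3 against 40.3, 52.2 and 63.1 FPKM on day 0 (log2 change -7.2 ± 0.67, adjusted p = 6e-05). Slc34a2, a phosphate carrier, had 41.2, 4.29 and 16.2 FPKM on day 3 against 369, 306 and 298 FPKM on day 0 (log2 change -6.26 ± 0.87, adjusted p = 0.00068). The zinc exporter gene Slc30a4 changed by -2.28. The 7 genes tested of the prolactin and STAT5 list included Esr1, which belongs to estrogen signaling. In that list 2 fell and none rose (2 to 4 fell with single JNK KO libraries left out, most without day 3 library 3). As deposited 4 rose and 1 fell (2 to 3 rose with libraries left out). Socs2, a feedback inhibitor induced by STAT5, had 2.91, 3.07 and 3.65 FPKM on day 3 against 6.09, 6.3 and 5.06 FPKM on day 0 (log2 change -2.57 ± 0.21, adjusted p = 3.8e-05), and Esr1, the estrogen receptor, changed by -2.11 (adjusted p = 0.00059). Elf5, a transcription factor of the alveolar lineage, had 542, 394 and 485 FPKM on day 3 against 241, 239 and 239 FPKM on day 0. It rose in values as deposited (log2 change 0.97, adjusted p = 0.0076), whereas its scaled change of -0.81 did not pass (adjusted p = 0.06). The scaled fall of Elf5 passed without day 3 library 3, at -1.08 (adjusted p = 0.018), and without WT day 0 library 1, at -0.82 (adjusted p = 0.024).

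The 10 largest falls also held genes of signaling and other functions. Ccl28, a chemokine that attracts IgA-producing cells to mucosae, had 1.62, 1.36 and 1.35 FPKM on day 3 against 92.3, 59.6 and 36.9 FPKM on day 0 (log2 change -6.97 ± 0.48, adjusted p = 1.3e-05). Egf, the growth factor secreted in milk, had 0.832, 0.701 and 1.07 FPKM on day 3 against 17.4, 20.7 and 24.6 FPKM on day 0 (log2 change -6.1 ± 0.54, adjusted p = 4.9e-05). Both genes were low in every day 3 library. Crhr1, a corticotropin-releasing hormone receptor, was listed at 0 in all 3 day 3 libraries, against 1.19, 4.73 and 8.37 FPKM on day 0. Ppapdc1a, a lipid phosphatase, was at 0 in 2 of 3 day 3 libraries (0.0633, 0 and 0 FPKM on day 3 against 4.04, 6.26 and 7.9 FPKM on day 0). Gldc, an enzyme of glycine cleavage, had 1.98, 0.242 and 0.664 FPKM on day 3 against 16.6, 23 and 25.3 FPKM on day 0. Gsdmc, a gasdermin, had 0.842, 0.214 and 0.128 FPKM on day 3 against 3.98, 11.5 and 15.2 FPKM on day 0 (log2 change -5.91 ± 0.58, adjusted p = 8.3e-05). Ttyh1, a membrane protein of the tweety family, had 1.12, 1.59 and 0.701 FPKM on day 3 against 16.9, 18.1 and 15.7 FPKM on day 0. None of the 10 largest falls overlapped between days, a condition of their choice; over all genes tested, 84.0% were higher and 1.76% lower without overlap as deposited, and 25.0% and 24.5% after scaling.

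**Figure D2:**
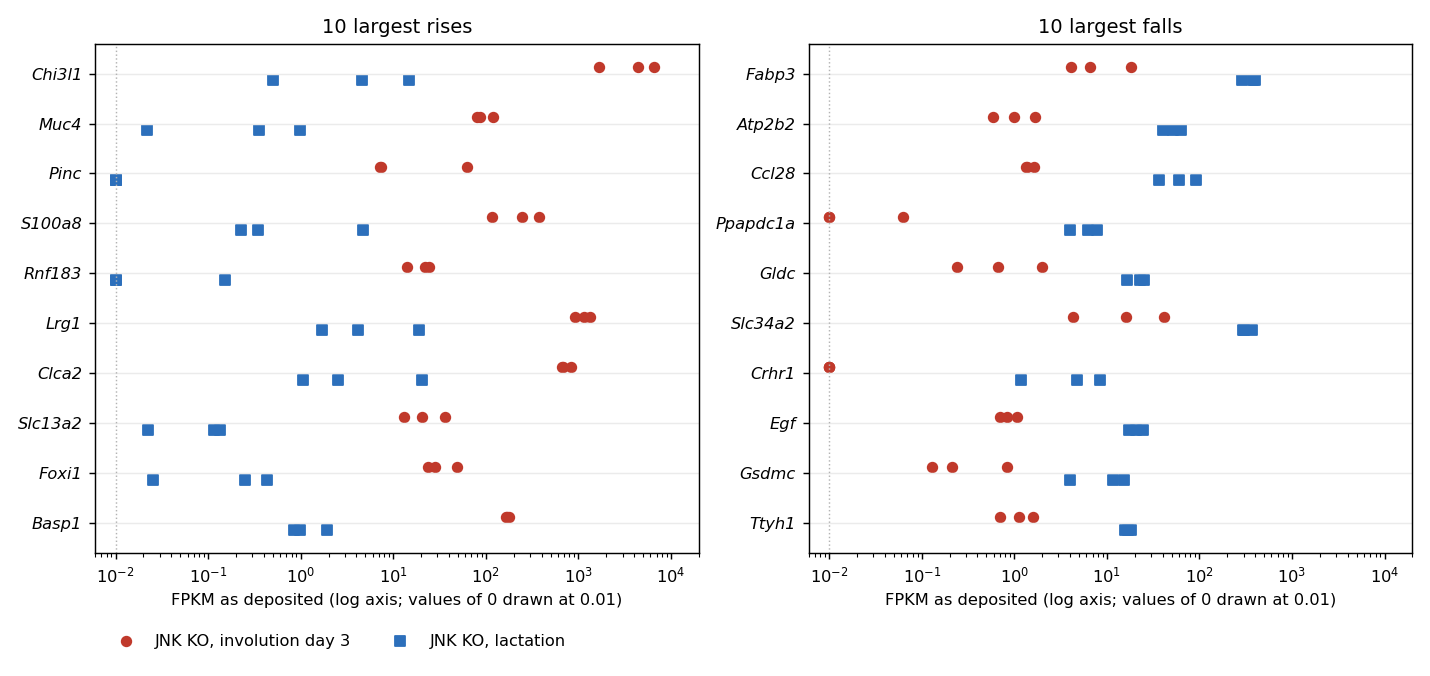
FPKM as deposited (log axis) of the 10 genes with the largest scaled rises (left panel) and falls (right panel) in JNK KO glands, circles for involution day 3 and squares for day 0, 3 libraries each. Circles and squares do not overlap for any of the 20 genes, which were selected for that; Pinc stands at 0 on day 0 and Crhr1 at 0 on day 3.

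Among the rises, the first was Chi3l1, a secreted chitinase-like glycoprotein, with 1683, 6484 and 4359 FPKM on day 3 against 14.7, 0.502 and 4.63 FPKM on day 0 (log2 change 8.29 ± 0.98, adjusted p = 0.00025). It was highest in day 3 library 4 and, on day 0, in library 1. Lrg1, an acute phase glycoprotein, had 1336, 929 and 1157 FPKM on day 3 against 19, 1.68 and 4.15 FPKM on day 0 (log2 change 5.99 ± 0.69, adjusted p = 0.00021). Muc4, a membrane mucin, had 118, 79.8 and 86.5 FPKM on day 3 against 0.988, 0.022 and 0.353 FPKM on day 0 (log2 change 6.45 ± 0.95, adjusted p = 0.00092). Clca2, a calcium-activated chloride channel regulator known to be abundant in the involuting mouse gland, had 674, 658 and 837 FPKM on day 3 against 20.3, 2.5 and 1.05 FPKM on day 0 (log2 change 5.76 ± 0.92, adjusted p = 0.0015). Pinc, the pregnancy-induced noncoding RNA, was listed at 0 on day 0 and had 62.6, 7.13 and 7.42 FPKM on day 3, so that library 3 was far above the other 2. Basp1, a membrane-associated phosphoprotein, had 171, 167 and 179 FPKM on day 3 against 1.92, 0.84 and 0.987 FPKM on day 0 (log2 change 5.36 ± 0.28, adjusted p = 3.4e-06). Rnf183, a ubiquitin ligase, had 14.2, 24.2 and 22.2 FPKM on day 3 against 0.151, 0 and 0 FPKM on day 0. Slc13a2, a dicarboxylate carrier (change 5.57), and Foxi1, a forkhead factor (change 5.39), rose, with every day 0 library below 1 FPKM. S100a8, a calcium-binding alarmin of myeloid cells and stressed epithelium, had 117, 371 and 248 FPKM on day 3 against 4.74, 0.228 and 0.349 FPKM on day 0 (log2 change 6.31 ± 0.92, adjusted p = 0.00088). Its usual partner S100a9 reached 3.59 FPKM at most on day 3, and Ly6g, Elane, Mpo, Camp, Ngp and Retnlg of the neutrophil list were below the FPKM minimum. Il1rn, the interleukin 1 receptor antagonist, was another of the 3 of 7 listed genes that rose (change 2.86).

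Of 26 STAT3 and acute phase genes (median change 2.67), 13 rose and 2 fell; the count of rises was 10 to 16 when single JNK KO libraries were left out, 16 without day 0 library 1 and 12 without day 3 library 3, and as deposited 22 rose and 1 fell. Socs3, the feedback inhibitor that STAT3 induces, had 14.6, 16.1 and 14.4 FPKM on day 3 against 1.2, 0.0965 and 0.372 FPKM on day 0 (log2 change 3.37 ± 0.60, adjusted p = 0.0028). All 3 day 3 libraries lay close together. Lcn2, a siderophore-binding lipocalin, had 12540.0, 9168 and 11205 FPKM on day 3 against 940.3, 267 and 200.1 FPKM on day 0 (log2 change 3.1 ± 0.52, adjusted p = 0.002). Saa1, a serum amyloid protein also made by mammary epithelium, had 6413, 7754 and 11681 FPKM on day 3 against 809, 19.7 and 14.6 FPKM on day 0 (log2 change 5.3 ± 1.14, adjusted p = 0.0077). Every day 3 library was above every day 0 library as deposited, where 84.0% of all genes tested were higher without overlap. Serpina3g, encoding the cathepsin inhibitor Spi2A, went the other way: it had 0.75, 1.43 and 2.39 FPKM on day 3 against 37.2, 7.17 and 4.01 FPKM on day 0 (log2 change -4.51 ± 0.77, adjusted p = 0.0021). The Socs3 promoter is printed because it holds a match to TTCNNNGAA, here in capitals; 2 of the 20 listed genes with a promoter in the set had one, the other being Serpina3g, a share close to the 8.13% of all genes with one.
Socs3, chr11:117969472-117969561, minus strand: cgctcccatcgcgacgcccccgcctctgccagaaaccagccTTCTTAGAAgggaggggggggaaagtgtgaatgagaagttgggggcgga

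Immune genes rose in several lists at once. Of 19 interferon-stimulated genes, 17 rose and none fell, with a median of 2.03 (12 to 16 with single JNK KO libraries left out, lowest without day 0 library 2), and as deposited 19 rose and 0 fell. Isg15, a ubiquitin-like modifier, had 51, 32 and 25 FPKM on day 3 against 0.831, 0.873 and 1.18 FPKM on day 0 (log2 change 3.33 ± 0.52, adjusted p = 0.0013). Oas1a, a sensor of double-stranded RNA, had 7.9, 5.48 and 3.7 FPKM on day 3 against 0.225, 0.144 and 0.088 FPKM on day 0. Usp18, which removes ISG15, had 14.9, 8.99 and 5.41 FPKM on day 3 against 0.329, 0.334 and 0.40 FPKM on day 0. In all 3 genes day 3 library 3 was the highest, and no day 0 library reached 2 FPKM. Ifit1, an antiviral RNA-binding protein, had 16.8, 7.65 and 8.41 FPKM on day 3 against 0.552, 0.246 and 0.502 FPKM on day 0 (log2 change 2.72 ± 0.48, adjusted p = 0.0025). A pair of GAAA runs with 2 bases between them, the core of the interferon-stimulated response element, was searched on both strands of the same 250 bases. It stood in 8 of the 15 listed genes with a promoter in the set, against 3.46% of all genes with one. The list was made of known interferon-stimulated genes, so this share follows from their choice and says nothing about these libraries. The promoters of Isg15, with 3 overlapping matches, and Ifit1, with 2 matches on the opposite strand (read as TTTC runs), are shown because 17 of the 19 listed genes rose.
Isg15, chr4:156200841-156200930, minus strand: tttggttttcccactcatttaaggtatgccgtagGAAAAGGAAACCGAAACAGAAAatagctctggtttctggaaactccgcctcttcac
Ifit1, chr19:34640754-34640843, plus strand: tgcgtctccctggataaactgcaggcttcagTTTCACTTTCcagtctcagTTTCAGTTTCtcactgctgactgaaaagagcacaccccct

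Antigen presentation genes also rose. Class II presentation gave 8 of 9 genes that rose (median 2.02; 7 to 8 with libraries left out), and class I with the immunoproteasome gave 8 of 12 (median 1.34; 5 to 8). None fell in either list. H2-Ab1, a class II beta chain, had 173, 320.5 and 292 FPKM on day 3 against 22.2, 17.2 and 14.6 FPKM on day 0 (log2 change 2.05 ± 0.32, adjusted p = 0.0012). H2-DMb1, a peptide-loading subunit (change 2.36), and Cd74, the invariant chain (change 1.46), also rose. Psmb8, a catalytic immunoproteasome subunit, had 15.9, 27.1 and 18 FPKM on day 3 against 1.6, 0.976 and 1.12 FPKM on day 0 (log2 change 2.21 ± 0.38, adjusted p = 0.0022), and H2-T23, a nonclassical class I chain, changed by 1.67.

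Macrophage markers summed to 8902, 15372 and 16162 FPKM on day 3 and 287, 179 and 246 FPKM on day 0, with 13 of 18 rising and none falling (median 2.0; 9 to 14 with libraries left out). Most of that sum was Spp1, osteopontin, which epithelium also secretes: it had 8434, 14422 and 15069 FPKM on day 3 against 215, 114 and 191 FPKM on day 0 (log2 change 4.41 ± 0.91, adjusted p = 0.006). Fcgr1, a high-affinity Fc receptor, had 5.46, 11.3 and 7.68 FPKM on day 3 against 0.19, 0.146 and 0.157 FPKM on day 0 (log2 change 3.43 ± 0.31, adjusted p = 4.9e-05). Cd68, a lysosomal glycoprotein of phagocytes, had 20.1, 43.6 and 48.1 FPKM on day 3 against 2.5, 1.67 and 1.77 FPKM on day 0 (log2 change 2.35 ± 0.32, adjusted p = 0.00062). C1qb, a chain of complement C1q, had 61.7, 127 and 139 FPKM on day 3 against 6.79, 5.12 and 4.43 FPKM on day 0 (log2 change 2.47 ± 0.37, adjusted p = 0.0011). Day 3 library 3 was the lowest of its group in each of these 4 genes. In the complement list, which shares C1qa, C1qb and C1qc with the macrophage list, 7 of 15 genes rose and none fell. C5ar1, the receptor for C5a, changed by 2.36. Among 25 chemokines and receptors, 13 rose and only Ccl28 fell (9 to 13 rose with libraries left out). Ccl2, which recruits monocytes, had 8.34, 3.72 and 5.31 FPKM on day 3 against 0.123, 0.117 and 0 FPKM on day 0 (log2 change 3.84 ± 0.61, adjusted p = 0.0015). Cxcl10, an interferon-induced ligand of CXCR3, had 4.88, 3.31 and 4.23 FPKM on day 3 against 0.0558, 0.0258 and 0.122 FPKM on day 0 (log2 change 3.46 ± 0.39, adjusted p = 0.00018). Cxcl17, a mucosal chemokine, had 76.5, 76.4 and 111 FPKM on day 3 against 5.65, 1.3 and 3.25 FPKM on day 0. T and B cell markers summed to 13.9, 30.3 and 25.4 FPKM on day 3 and 3.34, 2.69 and 2.7 FPKM on day 0. In that list 1 of 8 rose, against 11.3% of all genes tested.

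**Figure D3:**
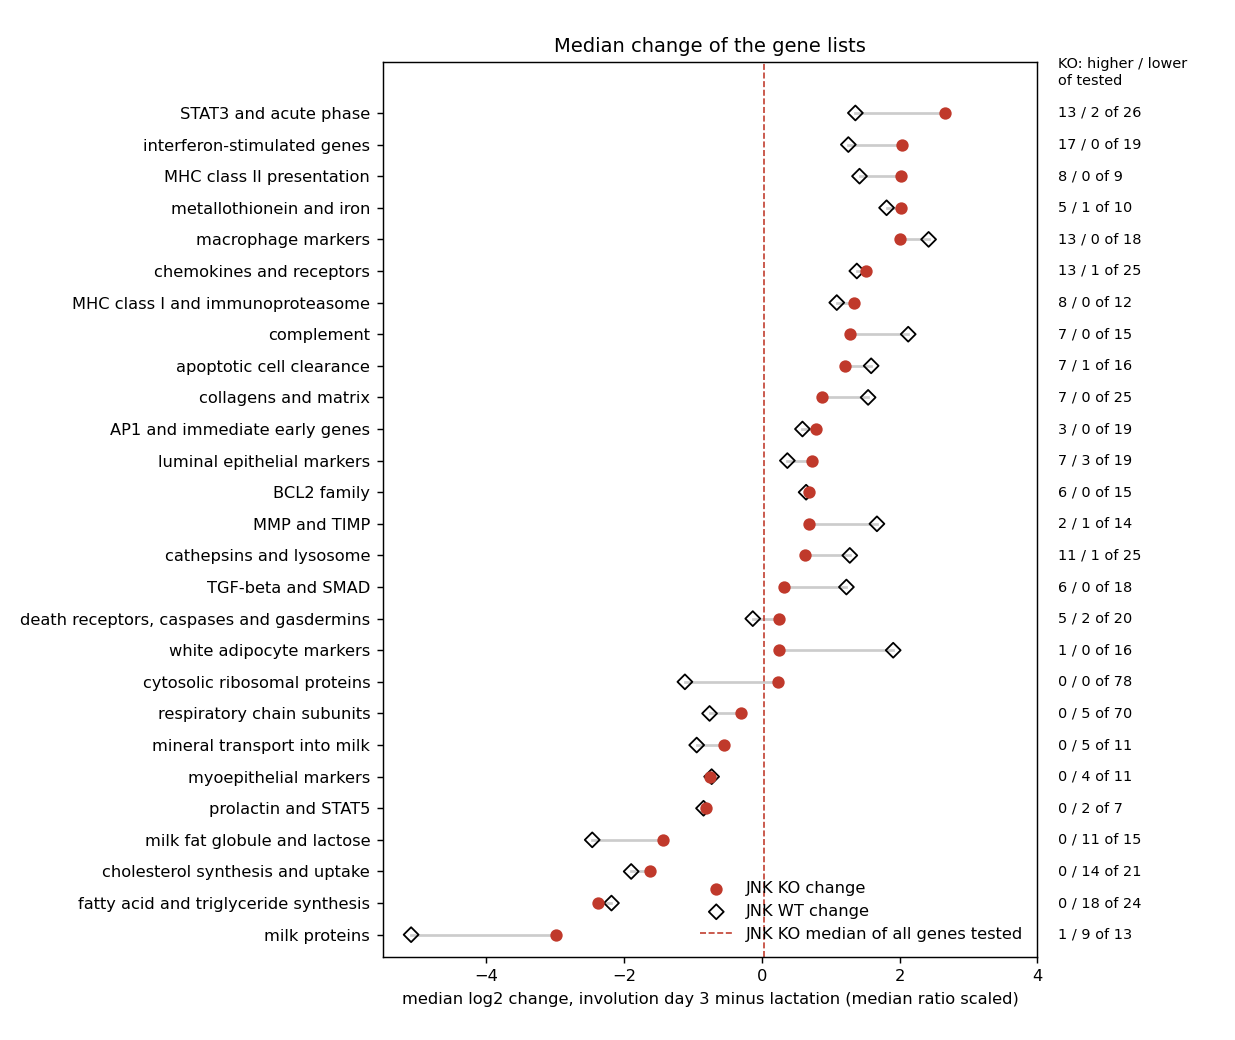
Median scaled log2 change (day 3 minus day 0) of each gene list in JNK KO glands (filled circles) and JNK WT glands (open diamonds), with the count of JNK KO members that rose and fell at the right; the dashed line is the median of all genes tested in JNK KO glands, 0.04. The acute phase, interferon and class II lists lie above 2 in JNK KO glands, and the milk protein list lies at -2.98.

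Genes of the lysosome and of dead cell clearance rose in part. Of 25 cathepsin and lysosome genes, 11 rose and 1 fell (median 0.62); the count of rises was 6 to 9 with single libraries left out, lowest without day 0 library 2 or 3, and as deposited 24 rose and 0 fell. Among all genes tested, 11.3% rose and 9.87% fell after scaling, and 80.0% rose as deposited. Lgmn, the asparaginyl endopeptidase legumain, had 38.8, 88.5 and 89.5 FPKM on day 3 against 4.83, 3.14 and 2.89 FPKM on day 0 (log2 change 2.46 ± 0.32, adjusted p = 0.00043). Ctss, a cathepsin of antigen-presenting cells, had 82.5, 203 and 166 FPKM on day 3 against 12.5, 7.64 and 6.86 FPKM on day 0 (log2 change 2.23 ± 0.33, adjusted p = 0.00099), and Cd63, a lysosomal tetraspanin, changed by 2.41. Cathepsins B and L, proteases implicated in lysosomal death during involution, did not pass. Ctsb had 150.4, 238 and 272 FPKM on day 3 against 74.7, 60.7 and 72.7 FPKM on day 0 (change -0.15, adjusted p = 0.64), though its values as deposited rose by 1.63. Ctsl had 153, 229.6 and 279 FPKM on day 3 against 51.9, 40.7 and 47.3 FPKM on day 0 (change 0.42, adjusted p = 0.17) and passed without WT day 0 library 1, at 0.42 (adjusted p = 0.046). Clearance genes gave 7 rises and 1 fall among 16, and as deposited 15 rose and 0 fell. Gas6, which bridges phosphatidylserine to TAM receptors, had 31.4, 71.4 and 94 FPKM on day 3 against 4.54, 2.75 and 4.26 FPKM on day 0 (log2 change 2.19 ± 0.30, adjusted p = 0.00059). Its receptor gene Tyro3 had 26.8, 28.5 and 26.4 FPKM on day 3 against 2.4, 1.1 and 0.814 FPKM on day 0 (log2 change 2.57 ± 0.56, adjusted p = 0.0081). Stab1, a scavenger receptor (change 2.68), and Anxa1, annexin A1 (change 2.16), rose as well.

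Of 15 BCL2 family genes, which set the threshold of mitochondrial death, 6 rose and none fell (median 0.69; 3 to 6 with libraries left out, lowest without day 0 library 2 or 3), and as deposited 14 rose and 0 fell. Among all genes tested, 11.3% rose after scaling and 80.0% as deposited. Bik, a BH3-only protein, had 2.72, 8.2 and 7.46 FPKM on day 3 against 0.309, 0.143 and 0.193 FPKM on day 0 (log2 change 2.68 ± 0.36, adjusted p = 0.00054). Bax, an effector that permeabilizes mitochondria, had 33.9, 55.5 and 54.2 FPKM on day 3 against 5.77, 3.79 and 3.02 FPKM on day 0 (log2 change 1.74 ± 0.41, adjusted p = 0.013), and without day 0 library 3 its adjusted p was 0.0533. The BH3-only gene Bid had 3.69, 7.52 and 7.96 FPKM on day 3 against 1.08, 0.542 and 0.521 FPKM on day 0 (log2 change 1.32 ± 0.31, adjusted p = 0.011), with an adjusted p of 0.0533 without day 0 library 2. Pmaip1, encoding NOXA, stayed at 1.29 FPKM or below (change 1.42, adjusted p = 0.033) and did not pass without day 3 library 4 or 6 or day 0 library 2 or 3, with changes of 1.17, 1.35, 1.51 and 1.16. Bcl2l11, encoding BIM, had 1.99, 5.66 and 5.34 FPKM on day 3 against 1.37, 0.883 and 1.0 FPKM on day 0 (change 0.09, adjusted p = 0.85). Bmf had 7.12, 13.5 and 18.7 FPKM on day 3 against 7.09, 1.95 and 1.2 FPKM on day 0 (change 0.46, adjusted p = 0.55); without day 0 library 1 its change was 1.15 and passed (adjusted p = 0.0277). Bbc3 changed by 0.79, Bad by 0.63, Bnip3 by -1.65 (0.12 as deposited) and Bnip3l by -0.03 (1.73 as deposited), none past the threshold after scaling. Without WT day 0 library 1, Bad passed at 0.62 (adjusted p = 0.0018), and Bnip3 passed at -1.66 (adjusted p = 0.0057); Bnip3 also passed without WT day 0 library 3, at -1.65 (adjusted p = 0.034). Of the death receptor, caspase and gasdermin genes, 5 of 20 rose and 2 fell, while as deposited 17 rose and 1 fell; the scaled rises were 3 to 5 with single JNK KO libraries left out, lowest without day 3 library 6 or day 0 library 2 or 3. Tnfrsf12a, the TWEAK receptor, had 31.2, 31.3 and 34.4 FPKM on day 3 against 2.02, 1.38 and 2.2 FPKM on day 0 (log2 change 2.32 ± 0.35, adjusted p = 0.001), and the pore-forming gene Gsdmd changed by 1.91.

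AP1 genes encode the main nuclear targets of JNK, and their list here also held other immediate early genes such as Ier2 and Egr1. Of the 19 genes tested in it, 3 rose and none fell (median 0.79), and 11.3% of all genes tested rose. With single JNK KO libraries left out 2 to 5 rose, fewest without day 3 library 6 and most without day 0 library 1. As deposited 18 rose and 0 fell, where 80.0% of all genes tested rose. Junb had 33.2, 44.6 and 47.1 FPKM on day 3 against 2.77, 0.737 and 0.482 FPKM on day 0 (log2 change 3.51 ± 0.49, adjusted p = 0.0007). Fos had 19.3, 14.8 and 25.8 FPKM on day 3 against 3.52, 1.77 and 1.2 FPKM on day 0 (log2 change 1.51 ± 0.36, adjusted p = 0.013), with an adjusted p of 0.0521 without day 3 library 6. Ier2, an immediate early gene, had 20.8, 33.7 and 33.5 FPKM on day 3 against 3.66, 3.25 and 2.9 FPKM on day 0 (log2 change 1.34 ± 0.17, adjusted p = 0.00044). As deposited, no day 3 library overlapped day 0 for these 3 genes, and 84.0% of all genes tested were higher without overlap. Jun itself had 4.32, 7.79 and 12.2 FPKM on day 3 against 0.753, 0.70 and 2.01 FPKM on day 0 (change 1.04, adjusted p = 0.068). Without day 0 library 3, the highest of its group, the change of Jun was 1.5 and passed (adjusted p = 0.00767); it also passed without WT day 0 library 1, at 1.04 (adjusted p = 0.047). Fosl2 had 6.0, 9.56 and 11.8 FPKM on day 3 against 2.61, 0.873 and 1.2 FPKM on day 0 (change 0.84, adjusted p = 0.095), and without day 0 library 1 it changed by 1.24 and passed (adjusted p = 0.0116). Jund had 37.3, 23.9 and 35.6 FPKM on day 3 against 12.3, 7.59 and 9.68 FPKM on day 0, a scaled change of -0.07 that did not pass against 1.7 as deposited. Atf3 had 1.34, 4.19 and 5.33 FPKM on day 3 against 0.694, 0.0888 and 0.579 FPKM on day 0 (change 1.25, adjusted p = 0.17). Atf5 changed by 0.32 and Fosb by 1.38, neither past the threshold.

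Of 14 matrix metalloproteinase and TIMP genes, 2 rose after scaling (Mmp23 and Mmp19, named after their values were seen), 1 fell, and the median was 0.69. As deposited 11 rose and none fell. Over all genes tested, 11.3% rose and 9.87% fell after scaling, and 80.0% rose as deposited. Both scaled rises were lost without day 3 library 6 or day 0 library 2. Mmp3, stromelysin 1, had 3.13, 40.4 and 28.3 FPKM on day 3 against 5.69, 1.5 and 1.92 FPKM on day 0 (change 0.8, adjusted p = 0.53). Day 3 library 3 was below day 0 library 1, so the groups overlapped. Mmp14, a membrane-anchored activator of gelatinase, had 10.3, 18.9 and 24.6 FPKM on day 3 against 2.42, 1.41 and 1.78 FPKM on day 0 (change 1.4, adjusted p = 0.055). Its days did not overlap as deposited, where 84.0% of all genes tested were higher without overlap. It passed without WT day 3 library 12 or WT day 0 library 1 or 2 in the shared estimate of spread (adjusted p = 0.0112 to 0.048). Mmp2, a gelatinase, had 8.34, 17.7 and 33.3 FPKM on day 3 against 3.88, 2.05 and 2.71 FPKM on day 0 (change 0.82). Mmp11 (0.83), Mmp12 (0.57), Mmp13 (0.41), Mmp15 (1.05) and Mmp9 (-0.87, against 0.61 as deposited) did not pass either. The inhibitor genes Timp2 (-0.0012 after scaling, 1.78 as deposited) and Timp3 (-1.06 after scaling, 0.67 as deposited) did not pass, and Timp4 fell with 1.49, 2.62 and 2.32 FPKM on day 3 against 2.83, 2.78 and 4.59 FPKM on day 0 (log2 change -2.35 ± 0.35, adjusted p = 0.00096). Without WT day 0 library 1, Mmp15 passed at 1.04 (adjusted p = 0.0021), and Timp3 passed at -1.07 (adjusted p = 0.037).

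**Figure D4:**
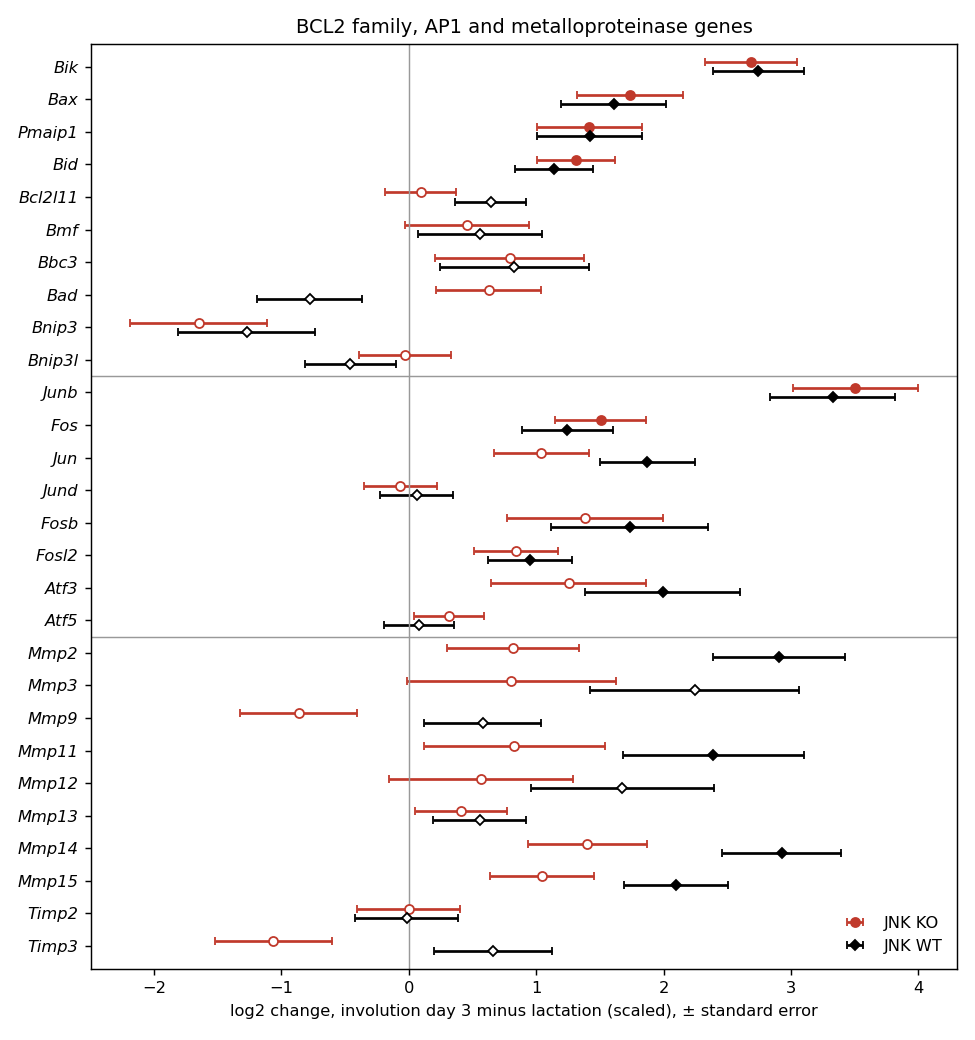
Scaled log2 change (day 3 minus day 0) with standard error of BCL2 family genes (top), AP1 genes (middle) and metalloproteinase and inhibitor genes (bottom) in JNK KO glands (circles) and JNK WT glands (diamonds); filled symbols have an adjusted p below 0.05. Bik, Bax, Pmaip1, Bid, Junb and Fos are filled in JNK KO glands, and no metalloproteinase drawn is.

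Matrix and growth factor genes rose in part. Of 25 collagen and matrix genes 7 rose and none fell, a count that was 3 to 5 with single libraries left out (lowest without day 3 library 4 or 6 or day 0 library 2 or 3), and as deposited 24 rose and 0 fell. Postn, periostin, had 134, 202 and 199 FPKM on day 3 against 19.6, 9.93 and 11.4 FPKM on day 0 (log2 change 1.96 ± 0.44, adjusted p = 0.0095), and Lox, the collagen cross-linking lysyl oxidase, changed by 1.76. Tgfb3, the TGF-beta isoform known to be induced by milk stasis, had 132, 104 and 124 FPKM on day 3 against 5.14, 3.19 and 4.56 FPKM on day 0 (log2 change 3.03 ± 0.25, adjusted p = 3.8e-05). Inhbb, an activin subunit, had 4.58, 16.3 and 16.7 FPKM on day 3 against 0.173, 0.135 and 0.152 FPKM on day 0 (log2 change 3.96 ± 0.32, adjusted p = 3.5e-05), with library 3 the lowest of day 3. Tgfbi, a matrix protein induced by TGF-beta, had 15.5, 28 and 29.2 FPKM on day 3 against 1.96, 0.978 and 1.46 FPKM on day 0 (log2 change 2.23 ± 0.26, adjusted p = 0.00027). In all, 6 of 18 genes of that list rose and none fell (4 to 5 with libraries left out), with a median of 0.32. Igfbp5, which binds IGF1 and is a long-known marker of involution, had 436, 504 and 675 FPKM on day 3 against 4.73, 2.61 and 12.1 FPKM on day 0 (log2 change 4.84 ± 0.59, adjusted p = 0.0003). Of the 12 genes of the IGF axis, 2 rose and 1 fell (median -0.35; 1 to 2 rose and 0 to 1 fell with single JNK KO libraries left out), while as deposited 6 rose and 0 fell. Of 6 EGF ligand and ERBB receptor genes none rose and 1, Egf, fell (median 0.37), while as deposited 5 rose and 1 fell. Over all genes tested, 11.3% rose and 9.87% fell after scaling, and 80.0% rose and 1.37% fell as deposited.

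Epithelial markers moved in both directions after scaling. Of 19 luminal markers 7 rose and 3 fell, while as deposited 16 rose and 1 fell. Over all genes tested, 11.3% rose and 9.87% fell after scaling, and 80.0% rose and 1.37% fell as deposited. Cldn4, a tight junction claudin, had 22.9, 47.2 and 51.9 FPKM on day 3 against 2.01, 0.155 and 0.381 FPKM on day 0 (log2 change 4.3 ± 0.64, adjusted p = 0.00096), and Cldn3 had 31.6, 65.4 and 69.3 FPKM on day 3 against 3.77, 1.93 and 3.6 FPKM on day 0 (log2 change 2.34 ± 0.31, adjusted p = 0.0005). Cldn8, another claudin, had 25.5, 22.5 and 28.4 FPKM on day 3 against 36.6, 42.6 and 43.2 FPKM on day 0 and fell (log2 change -2.46 ± 0.24, adjusted p = 9.1e-05). Krt19, a luminal keratin, had 340.3, 126 and 394 FPKM on day 3 against 21.6, 5.19 and 5.52 FPKM on day 0 (log2 change 3.12 ± 0.61, adjusted p = 0.0047). Myoepithelial markers fell in 4 of 11 cases and rose in none, though as deposited 8 rose (1 to 3 fell with libraries left out, fewest without day 3 library 4). Acta2, smooth muscle actin, had 125, 88.5 and 123 FPKM on day 3 against 85.7, 70.2 and 59.9 FPKM on day 0 (change -1.14; 0.64 as deposited), and without day 3 library 4 its scaled change of -0.92 had an adjusted p of 0.0511. Cnn1, calponin, changed by -1.37 (as deposited 0.4). White adipocyte markers summed to 1776, 5059 and 3838 FPKM on day 3 and 609, 456 and 759.7 FPKM on day 0, and 1 of 16 rose after scaling against 16 as deposited. Fabp4, the adipocyte fatty acid binding protein, had 894, 2997 and 1735 FPKM on day 3 against 231, 194 and 227 FPKM on day 0 (change 1.16, adjusted p = 0.16), lowest on day 3 in library 3, and passed without WT day 0 library 1 at 1.16 (adjusted p = 0.018).

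Iron and redox genes rose in part. Fth1, the ferritin heavy chain, had 21036, 29858 and 25592 FPKM on day 3 against 1419, 719.9 and 620.2 FPKM on day 0 (log2 change 3.09 ± 0.46, adjusted p = 0.00092), and Ftl1, the light chain, had 763, 1528 and 1876 FPKM on day 3 against 122, 74.5 and 74 FPKM on day 0 (log2 change 2.11 ± 0.37, adjusted p = 0.0024). Cp, ceruloplasmin, a ferroxidase, had 865, 1208 and 1339.7 FPKM on day 3 against 85.2, 40.1 and 50.5 FPKM on day 0 (log2 change 2.55 ± 0.28, adjusted p = 0.00016). The transferrin receptor gene Tfrc fell, with 19.1, 7.46 and 7.52 FPKM on day 3 against 22.3, 35.9 and 34 FPKM on day 0 (log2 change -3.31 ± 0.51, adjusted p = 0.0012). All 3 ferritin and ferroxidase genes were higher in each day 3 library than in any day 0 library, and Tfrc was lower. As deposited, 84.0% of all genes tested were higher and 1.76% lower without overlap. In the metallothionein and iron list 5 of 10 rose and 1 fell, while as deposited 9 rose and 1 fell. Nqo1, a quinone reductase and target of NRF2, had 35.2, 25 and 50.4 FPKM on day 3 against 1.32, 0.387 and 0.961 FPKM on day 0 (log2 change 3.61 ± 0.45, adjusted p = 0.00036). Hmox1, heme oxygenase 1, had 25.3, 65.5 and 63.8 FPKM on day 3 against 3.69, 1.19 and 1.2 FPKM on day 0 (log2 change 2.94 ± 0.42, adjusted p = 0.00082). Of 15 NRF2 and antioxidant genes 5 rose and 1 fell (median 0.46; 3 to 4 rose with single JNK KO libraries left out), while as deposited 15 rose and 0 fell. Slpi, a protease inhibitor with WAP domains, had 353, 469.8 and 489 FPKM on day 3 against 12.9, 2.19 and 1.13 FPKM on day 0 (log2 change 5.28 ± 0.74, adjusted p = 0.00071). Stress response genes of the endoplasmic reticulum were mixed. Of 18 listed, 4 rose and 2 fell (median 0.48; 3 to 5 rose with single JNK KO libraries left out), while as deposited 15 rose and 1 fell. Among all genes tested, 11.3% rose and 9.87% fell after scaling, and 80.0% rose and 1.37% fell as deposited. Ddit3, encoding CHOP, rose (1.66), Asns, asparagine synthetase, fell (-2.53), and Trib3 changed by -1.48 after scaling and 0.27 as deposited. The 78 ribosomal protein genes had a median of 0.24 after scaling, and 75 of them rose as deposited.

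Whether the JNK KO change differed from the JNK WT change was tested gene by gene in the same fit. Only 2 of 14512 genes (0.0138%) passed an adjusted p of 0.05, the same 2 in values as deposited and after scaling, while 1880 scaled values had an unadjusted p under 0.05 (2705 as deposited). Gm25596, a small nuclear RNA gene in GENCODE whose model in the deposited table spans chr10:29313166-29362442 (GRCm38), was at 0 in all 3 JNK KO day 3 libraries against 14.6, 38.2 and 17.4 FPKM in JNK KO day 0 libraries, and at 0 in all 6 JNK WT libraries. It entered the test through these 3 day 0 libraries alone, and the other groups had no spread, so its adjusted p gives no support to a genotype difference. Gm13381, annotated as an antisense RNA and spanning chr2:28555795-28583751, had 4.9, 5.3 and 3.57 FPKM on day 3 against 2.87, 3.57 and 4.53 FPKM on day 0 in JNK KO glands, and 0.606, 0.238 and 0.297 FPKM in JNK WT glands on day 3 and 5.19, 4.61 and 5.69 FPKM in JNK WT glands on day 0 (difference 4.19 ± 0.47, adjusted p = 0.016). Both deposited models are longer than the GENCODE genes of those names, so their FPKM may hold reads of other transcripts within the span. The authors' counting is not stated to use strand, so reads of either model and of genes that overlap it cannot be told apart. None of the differences given next passed. Glycam1 changed by -4.0 in JNK KO and -8.64 in JNK WT (difference 4.64 ± 1.09, adjusted p = 0.22). Wap changed by -1.55 in JNK KO and -5.08 in JNK WT (difference 3.54 ± 1.35, adjusted p = 0.31), with 4797, 25623 and 22147 FPKM in JNK WT glands on day 3 and 85052, 53113 and 127810.0 FPKM in JNK WT glands on day 0. Olah changed by -3.97 in JNK KO and -7.81 in JNK WT (difference 3.84 ± 0.59, adjusted p = 0.11). Fads2 changed by -4.42 in JNK KO and -2.6 in JNK WT (difference -1.81 ± 0.53, adjusted p = 0.24). Nqo1 changed by 3.61 in JNK KO and 1.52 in JNK WT (difference 2.09 ± 0.64, adjusted p = 0.27), and Isg15 by 3.33 in JNK KO and 1.63 in JNK WT (difference 1.7 ± 0.73, adjusted p = 0.37). Mmp2 changed by 0.82 in JNK KO and 2.91 in JNK WT (difference -2.09 ± 0.73, adjusted p = 0.30). The median of the white adipocyte list was 0.25 in JNK KO and 1.91 in JNK WT glands, and that of the milk list was -2.98 in JNK KO and -5.09 in JNK WT glands. These medians were not tested between genotypes, and no member of either list passed for the genotype difference. JNK WT day 0 library 1 stood apart, with a scale factor of 0.305, and the scaled JNK KO count was 2396 without it, against 1399 with it. The count of 2 depended on the fit: it was 645 scaled and 168 as deposited with array weights, and 304 as deposited without WT day 3 library 12.

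**Figure D5:**
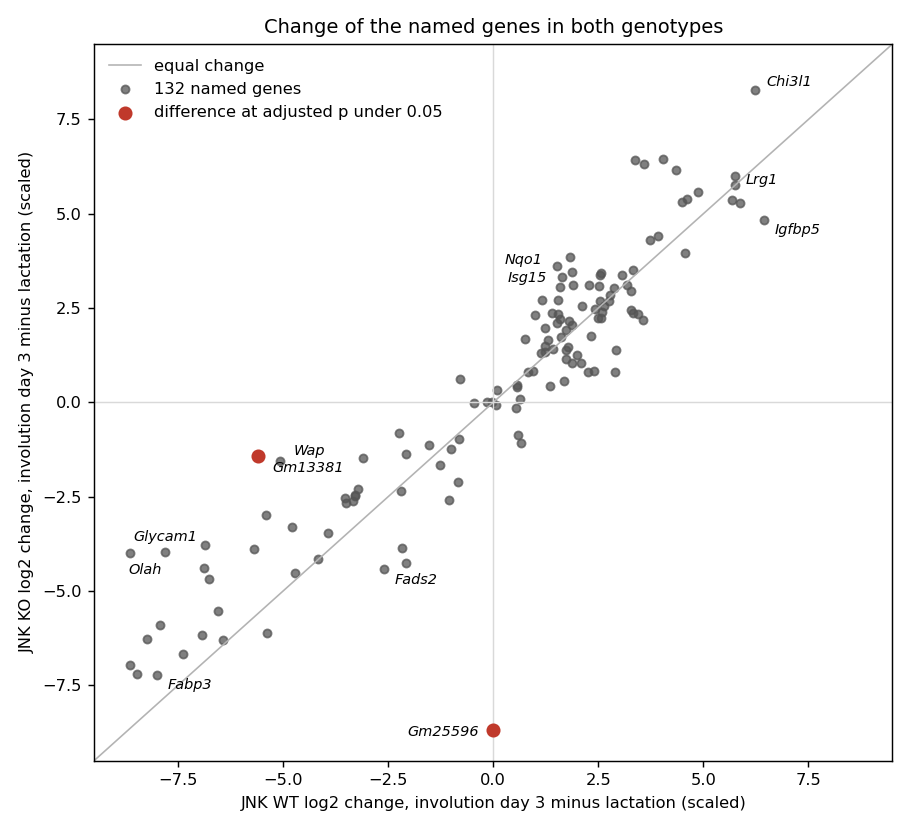
Scaled log2 change (day 3 minus day 0) of 132 named genes in JNK KO glands (vertical axis) against JNK WT glands (horizontal axis), with the line of equal change; larger symbols mark Gm25596 and Gm13381, whose difference between genotypes had an adjusted p below 0.05, that of Gm25596 resting on 3 libraries above 0. Chi3l1 lies at 8.29 in JNK KO and 6.24 in JNK WT, and Glycam1 at -4.0 in JNK KO and -8.64 in JNK WT.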

How the data were processed

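Whole mammary glands of 12 mice gave 1 RNA-seq library each, 3 per genotype and day. Per the labels and the study's methods, the authors trimmed the paired-end reads, placed them on GRCm38 (TopHat2 2.0.14, Bowtie2) and used Cufflinks 2.2.1 to make FPKM for each library. The deposited FPKM are not counts, so depth per library is unknown. Columns holding the authors' own Cuffdiff comparison were not used. The 14512 genes that reached 0.5 FPKM in 3 or more libraries were fitted with limma 3.58.1 (R 4.3.3) on log2(FPKM + 0.1), as deposited and after median ratio scaling, with 4 group means, a mean-variance trend and Benjamini-Hochberg adjustment over all of them; such changes understate those of low genes. The genotype difference was a contrast in that fit. Milk shares were compared by an exact permutation test.

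Genes were named by a rule: Mapk8 and Mapk9, the 10 largest scaled rises and falls whose days did not overlap, for each list up to 4 members per direction that passed plus the most abundant, and the smallest p of the genotype difference. Of the 244 genes it gave, 132 are named, and some are not reported here. Members and lists were chosen with earlier results of these data known. Alternatives varied the pseudocount, filter, scaling, libraries in the fit, trend and weights. List counts without JNK KO day 0 library 1 or day 3 library 3 were added after seeing the data. The fits were tested on simulated data with few changed genes and an even shift of the JNK KO day 3 libraries. Such data do not test which scaling suits these libraries. Promoters are from RefSeq (GRCm38.p6).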

Additional observations from a re-analysis of the deposited data

Results flagged for a closer look

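2 genes differed between genotypes in their change from day 0 to day 3, by a test of the difference itself (limma, adjusted over 14512 genes). For Gm25596 the JNK KO change minus the JNK WT change was -7.74 as deposited (adjusted p = 4.15e-05) and -8.69 after scaling (adjusted p = 3.31e-05). The 3 JNK KO day 0 libraries were the only ones of the 12 above 0, so the size depends on the pseudocount. The gene passed the FPKM minimum through those libraries alone and had no spread in the other groups, so its p gives no support to a genotype difference. For Gm13381 the difference was 3.85 as deposited (adjusted p = 0.0166) and 4.19 after scaling (adjusted p = 0.0165). All 3 JNK KO day 3 libraries were above all 3 JNK WT day 3 libraries.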

How the results depend on the processing

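Scaling set the balance of rises and falls. From values as deposited (9641 genes, 9525 higher and 116 lower), the count was 1379 (777 higher, 602 lower) with 75th percentile scaling, 913 (711 higher, 202 lower) with a common total without milk proteins and antigen receptor segments, and 1399 (714 higher, 685 lower) with median ratio scaling. Array weights, whose estimation did not fully converge, gave 198 lower genes as deposited and 3018 scaled (1697 higher, 1321 lower). Leaving out single libraries gave 675 to 2396 scaled genes, 311 to 1240 higher and 353 to 1156 lower. Counts were 706 and 685 without JNK KO day 3 library 4 or 6, 675 and 808 without JNK KO day 0 library 2 or 3, and 2396 without JNK WT day 0 library 1. The genotype difference, 2 genes in either fit, gave as deposited 400 with a pseudocount of 1, 19 without a filter, 11 without the trend, 168 with array weights and 1 to 304 with libraries left out (304 without JNK WT day 3 library 12). After scaling it gave 6 without a filter, 645 with array weights and 1 to 14 with libraries left out. Among 132 named genes and 2903 values under the alternatives, 2765 kept direction and side of the threshold, 40 no longer passed, 59 newly passed and 39 changed sign. As deposited, 15 genes changed sign: Mapk8 0.70, Mapk9 0.52, Wap 0.23, Elf5 0.97, Ctsb 1.63, Bnip3 0.12, Bnip3l 1.73, Jund 1.70, Mmp9 0.61, Timp2 1.78, Timp3 0.67, Cnn1 0.40, Acta2 0.64, Trib3 0.27 and Gm13381 0.32. The other changes of sign passed in neither fit: Timp2 0.0132 with no filter, Bnip3l 0.0352 and Timp2 0.063 with 75th percentile scaling, Ctsb 0.21, Bnip3l 0.34, Jund 0.30 and Timp2 0.37 with the common total, and Mfge8 -0.23, Bnip3l 0.0126 and Timp2 0.0905 with array weights. With single libraries left out the ranges that crossed 0 were -0.51 to 0.46 (Mfge8), -0.14 to 0.0901 (Bnip3l), -0.0994 to 0.40 (Bcl2l11), -0.35 to 0.20 (Jund), -0.21 to 0.25 (Timp2) and -0.0818 to 1.15 (Bmf). The cause of these changes was not tested. Of the 185 genes of the naming rule that passed after scaling, 125 passed whichever library was left out. No paired analysis was possible because the library numbers of the deposited columns are not linked to the replicate numbers of the labels. Where a left-out library leaves 2 in a group, those are assumed to vary like the other groups. Precision is limited by 3 libraries per group and unknown depth.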
